A study of Mus musculus with 6 samples.

Results

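The insulin-like growth factor (IGF) system was followed here in primary Schwann cells (SCs) with and without Plexin-B1, over 10 genes that encode its ligands (*Igf1*, *Igf2*), its receptors (*Igf1r*, *Igf2r*) and its binding proteins (*Igfbp2*, *Igfbp3*, *Igfbp4*, *Igfbp5*, *Igfbp6*, *Igfbp7*). The genes were chosen by name, and each was matched to 1 of the 55401 genes of the deposited count table through its Ensembl identifier. All 10 passed the filter on low counts, as did 22318 genes in all. The libraries are bulk RNA-seq of SCs grown from dorsal root ganglia (DRGs) of adult mice, 3 from WT and 3 from Plxnb1-/- animals, the latter (PB1 -/- in the labels) also called mutant below. The Plxnb1-/- allele is a gene trap insertion carried by every cell of the animal, and the mice were kept on a C57BL/6 background. The labels give the control cultures as WT, whereas by the study's methods its controls could also be heterozygous littermates, so that the control genotype rests on the labels alone. Cells of both genotypes were enriched by removal of Thy1+ fibroblasts and grown in medium with forskolin, neuregulin, and serum, and they were used after several passages. The labels do not say whether replicates are separate animals, so that p-values measure the spread between these cultures, which may be technical.

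IGF1 and IGF2 are secreted peptides related to insulin. Both bind the receptor tyrosine kinase encoded by *Igf1r*, which signals through PI3K, Akt, and mTOR, whereas the receptor encoded by *Igf2r* takes up IGF2 and carries lysosomal enzymes. The IGF binding proteins hold the ligands in the extracellular space and, depending on the proteases nearby, withhold or release them. In peripheral nerve, IGFs are known as survival and growth signals for SCs and neurons.

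Depth ranged from 59252048 to 77280964 counts. The limit of detection, taken as 3 counts, equals 0.0388 to 0.0506 CPM (counts scaled to the library total). This limit covers counting error only. CPM values below are scaled by TMM, a method that makes libraries of different composition comparable, and the values of 3 cultures are listed in the order of replicates 1, 2, and 3. *Plxnb1* itself measured between 45.4 and 96.4 CPM in WT, against between 13.1 and 18.6 CPM in mutant SCs (log2 fold change −2.08, adjusted p = 0.0449 from edgeR). These values sum all exons of the gene, whereas the paper reports lost expression for exons that lie beyond the gene trap. The first principal component of all tested genes held 30.0% of the variance. On it WT replicate 2 lay at −47.4 and the other WT cultures at −3.58 and −7.52. Plxnb1-/- replicates 1, 2, and 3 lay at 10.3, 14.1, and 34.0. On the second component, which held 20.8%, WT replicate 1 lay farthest from 0, at 39.1. Values without WT replicate 2 are given beside the genes whose log2 fold change it moved by over 1.5 times. The SC transcription factor *Sox10* was found in every culture, at between 432 and 579.9 CPM. Because the libraries are bulk samples, fewer cells of a type and less RNA per cell cannot be told apart in any value below.

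The upstream sequences of *Igfbp5*, *Igfbp6*, and *Igfbp3* are shown because these were the binding protein genes whose WT and Plxnb1-/- cultures did not overlap, lower for the first and second and higher for the last. Each is the 250 bases before the RefSeq start of the gene, in GRCm38.p6 and read in the direction of the gene. Capitals mark matches on either strand to the TATA box (TATAAA), to a related run of letters (TATATA or, in another gene, TTTAAA), and to the CCAAT box (CCAAT). The related runs were added to the search after the windows had been seen. GENCODE places 19 bases of the *Igfbp5* window in an exon of that gene, and it starts *Igfbp6* further downstream.
Igfbp5 upstream (chr1:72874866-72875115, minus strand): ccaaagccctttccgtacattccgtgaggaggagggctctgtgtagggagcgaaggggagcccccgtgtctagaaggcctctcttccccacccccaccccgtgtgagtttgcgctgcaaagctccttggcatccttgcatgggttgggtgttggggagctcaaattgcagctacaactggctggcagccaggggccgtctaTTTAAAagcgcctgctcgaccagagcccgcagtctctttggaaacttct
Igfbp6 upstream (chr15:102143936-102144185, plus strand): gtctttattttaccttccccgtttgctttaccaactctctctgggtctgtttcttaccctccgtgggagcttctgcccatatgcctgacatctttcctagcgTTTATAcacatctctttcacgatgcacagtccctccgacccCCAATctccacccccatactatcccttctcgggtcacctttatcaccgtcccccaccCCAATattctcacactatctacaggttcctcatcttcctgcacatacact
Igfbp3 upstream (chr11:7213924-7214173, minus strand): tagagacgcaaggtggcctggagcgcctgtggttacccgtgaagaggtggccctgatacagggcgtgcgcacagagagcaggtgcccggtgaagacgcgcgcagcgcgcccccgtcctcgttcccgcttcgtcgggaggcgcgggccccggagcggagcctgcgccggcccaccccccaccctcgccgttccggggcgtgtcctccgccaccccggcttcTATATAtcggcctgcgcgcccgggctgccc

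Among 32817 upstream windows of this length, TATAAA was found in 12.4%, TATATA in 5.3%, TTTAAA in 12.1%, and CCAAT in 33.8%. In the *Igfbp5* window TTTAAA lies between 49 and 44 bases before the RefSeq start. In the *Igfbp3* window TATATA lies between 30 and 25 bases before it, and this window held 73.2% G and C, against 58.8% for *Igfbp5* and 49.6% for *Igfbp6*. The *Igfbp6* window held CCAAT in 2 places, and its TATAAA is on the opposite strand, 148 to 143 bases before the start. The letters TGACTCA (AP-1 site, in 4.5% of all windows) and GTAAACA (forkhead site, 3.2%) were in none of the 10 genes' first listed windows. In these windows CACGTG (E-box, 6.0%) was in 2 and GGGCGG (GC box, 32.7%) in 4. Of the further windows, window 2 of *Igfbp2* held TGACTCA, and windows 3 and 4 of *Igf2* held GGGCGG. These are matches of letters and not sites of binding. The RefSeq window of *Igf1* lies inside an annotated exon of *Igf1* and is not shown.

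Levels of different genes were compared per length, as CPM divided by the kilobases of merged exons. Reads over exon junctions can be lost in the alignment, and the number of merged exons differs between the genes. It was 49 for *Igf2r*, 21 for *Igf1r*, and 4 for *Igfbp5*. The effect of this on ranks and ratios between genes was not tested. The binding proteins took the first 5 places in both genotypes, and the ligands were near the bottom. In WT SCs, *Igfbp5* stood at 565 ± 88.9 (SD, n = 3) CPM per kb of exons, *Igfbp7* at 436 ± 27.5, *Igfbp3* at 198 ± 14.2, *Igfbp6* at 81.1 ± 15.3, and *Igfbp4* at 46.0 ± 5.50. *Igf2r* followed at 38.1 ± 4.37 and *Igf1r* at 4.55 ± 0.140. *Igf1* was at 2.28 ± 0.298, *Igfbp2* at 0.743 ± 0.315, and *Igf2* at 0.319 ± 0.0442. The order was the same in Plxnb1-/- SCs. Neighbours in this order did not overlap between cultures of a genotype, except *Igfbp4* and *Igf2r* in WT. By this measure *Igfbp5* ranked 29 and *Igfbp7* 38 among 22280 tested genes with a known exon length, whereas *Igf1* ranked 11827 and *Igf2* 16406. *Igfbp1*, the family gene outside the 10, had 0 counts in all 6 libraries, so that any level lay under the limit of detection.

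**Figure D1:**
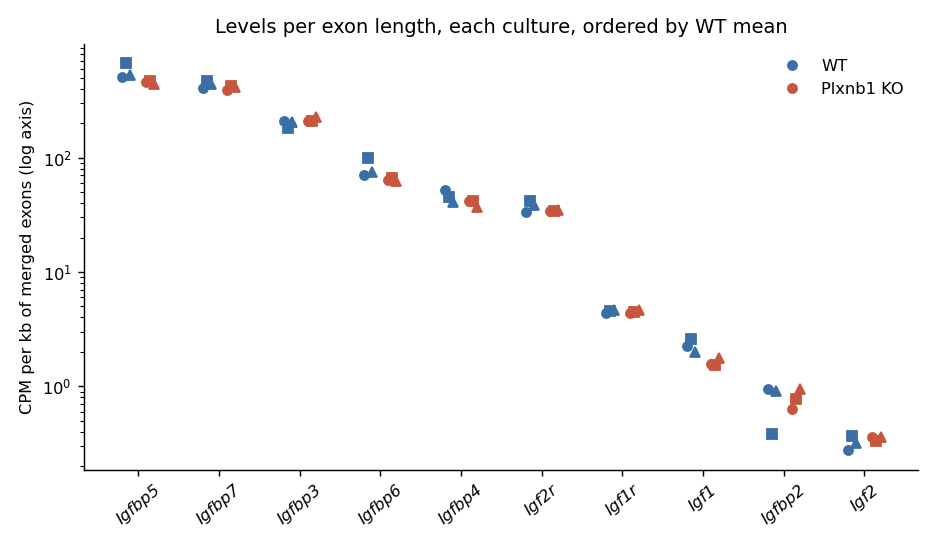
Level of each gene per exon length (CPM per kb of merged exons, log axis) in each WT (blue) and Plxnb1-/- (red) culture, with replicates 1, 2, and 3 as circles, squares, and triangles and genes ordered by their WT mean. *Igfbp5* and *Igfbp7* are at the top, *Igf2* is at the bottom, and the order is the same in both genotypes.

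Taken as a share of the summed level of the 6 binding proteins per exon length, *Igfbp5* made up 42.4 ± 2.93% in WT and 38.4 ± 1.08% in Plxnb1-/- SCs (SD, n = 3). *Igfbp7* made up 32.9 ± 1.11% and 34.5 ± 0.828%, and *Igfbp3* 15.05 ± 2.26% and 18.2 ± 0.992%. The shares of *Igfbp5* and *Igfbp6* were lower and that of *Igfbp3* higher in every Plxnb1-/- culture than in every WT culture. That of *Igfbp6* was 6.07 ± 0.606% in WT and 5.43 ± 0.125% in Plxnb1-/- SCs. WT replicate 2 had the highest share of *Igfbp5*, 45.8%, and of *Igfbp6*, 6.77%, and the lowest share of *Igfbp3*, 12.5%. The sum of all 6 ranged from 1242 to 1457 CPM per kb in WT and from 1161 to 1212 CPM per kb in Plxnb1-/- SCs. These sums and shares are given as descriptions, without a test. *Igf2r* exceeded *Igf1r* 8.37 ± 0.824 times per exon length in WT and 7.61 ± 0.167 times in Plxnb1-/- SCs.

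The question for each gene was whether its level differed between WT and Plxnb1-/- SCs. The test was edgeR's quasi-likelihood test over all 22318 genes, and a gene was called when its Benjamini-Hochberg adjusted p was below 0.05 and its log2 fold change lay beyond 0.25 in either direction. Fold changes are those of Plxnb1-/- over WT, on the log2 scale. By edgeR, 0 of the 10 genes were called, where 0.0358% of all tested genes were, 0.0314% as lower and 0.00448% as higher. Of the 10, 4, all lower, had an unadjusted p below 0.05, against 13.7% of all genes in either direction and 6.78% lower. DESeq2, the tool that the study's methods name, called 2 of the 10, *Igf1* and *Igfbp5*, both lower. It called 1.5% of all genes, 0.811% as lower and 0.69% as higher. Without the filter on low counts edgeR called 1 of the 10, *Igf1* (adjusted p = 0.0147 from edgeR), where it called 0.949% of all genes. WT and Plxnb1-/- cultures did not overlap for 4 of the 10 genes, 3 lower and 1 higher, against 19.7% of all tested genes, 10.4% lower and 9.3% higher. In all, 7 genes had a log2 fold change below 0 and 3 above, with a median of −0.13, where the median over all tested genes was 0.0050 and 48.5% lay below 0. None of the 10 genes lies on chromosome 9, which carries *Plxnb1*.

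**Figure D2:**
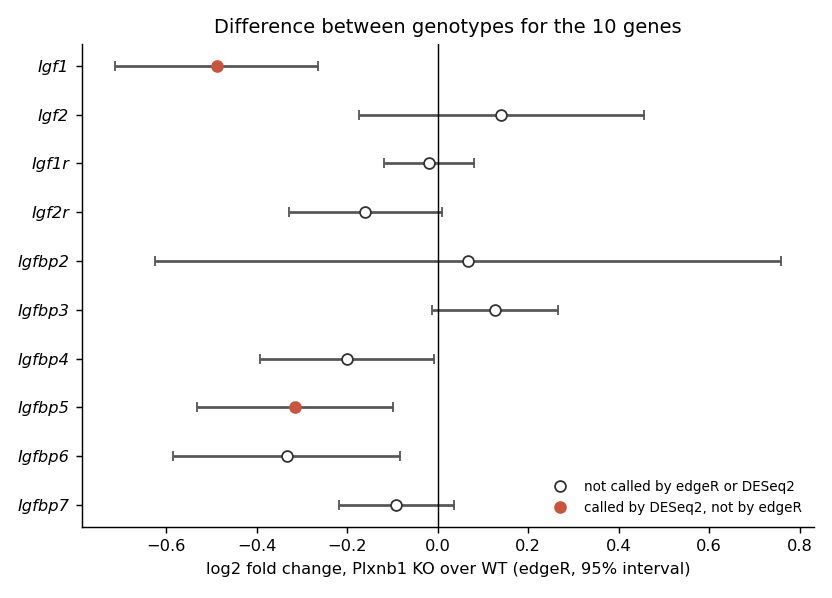
Log2 fold change of each gene, Plxnb1-/- over WT, from edgeR (points) with its 95% interval (bars), filled where DESeq2 called the gene. The intervals of *Igf1*, *Igfbp4*, *Igfbp5*, and *Igfbp6* lie below 0, and edgeR called none of the 10 after adjustment over all tested genes.

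*Igf1*, the ligand with the higher level of the pair, had the log2 fold change farthest from 0 among the 10 genes. The gene spans 87858265 to 87937042 on chromosome 10 of GRCm38. It stood at 22.4, 25.6, and 19.7 CPM in the WT cultures, against 15.5, 15.2, and 17.6 CPM in the mutant ones, from 1099 to 1500 counts per library. No mutant culture reached the lowest WT culture. Its log2 fold change was −0.49 (95% interval −0.71 to −0.26), or 28.7% lower, with an adjusted p of 0.255 from edgeR's quasi-likelihood test and of 0.00157 from DESeq2. In edgeR fits that each omitted 1 culture, the value ranged from −0.58 to −0.39, and DESeq2 called the gene in 5 of 6 such fits. The exception was the fit without Plxnb1-/- replicate 2 (adjusted p = 0.0629 from DESeq2). Without WT replicate 2 the log2 fold change was −0.39 (adjusted p = 0.302 from edgeR and 0.0130 from DESeq2).

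*Igf2*, the second ligand, is an imprinted fetal growth factor on chromosome 7 (142650766 to 142666816). Its counts were 101, 122, and 129 in WT replicates 1, 2, and 3 and 160, 139, and 144 in Plxnb1-/- replicates 1, 2, and 3, or 1.58 to 2.08 CPM in WT and 1.92 to 2.08 CPM in Plxnb1-/- SCs. The genotypes overlapped. The difference on the log2 scale was 0.14, with a 95% interval from −0.17 to 0.46 (adjusted p = 0.691 from edgeR), which includes values on both sides of 0. It was 0.25 without WT replicate 2 and 0.05 without WT replicate 1. Exons of *Gm49394*, a coding gene on the same strand, share 62.8% of the exon bases of *Igf2*, and its counts ran between 94 and 150, close to those of *Igf2* in each library, and reads may be counted for either gene or both. The noncoding gene *H19*, which neighbours *Igf2* and is imprinted with it, measured 107 ± 32.4 CPM in WT, against 108 ± 5.11 CPM in mutant SCs (SD, n = 3), with a log2 fold change of 0.02 that ranged from −0.21 to 0.19 when 1 culture was omitted (without WT replicates 1 and 2, respectively).

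The receptor *Igf1r* had the log2 fold change nearest to 0 among the 10 genes, and it lies on chromosome 7 (67952827 to 68233668). It stood at 74.0, 76.6, and 78.7 CPM in the WT cultures, against 73.2, 75.1, and 77.9 CPM in the mutant ones, and the cultures of the genotypes interleaved. On the log2 scale it differed by −0.02, with a 95% interval from −0.12 to 0.08 (adjusted p = 0.882 from edgeR). *Igf2r*, the scavenger receptor for IGF2 on chromosome 17 (12682406 to 12769664), stood at 311, 392, and 362 CPM in the WT cultures, against 316, 316, and 321 CPM in the mutant ones. WT replicate 1 lay below all 3 Plxnb1-/- cultures and the other WT cultures above them. The log2 fold change was −0.16 (95% interval −0.33 to 0.01, adjusted p = 0.383 from edgeR), and it was −0.08 without WT replicate 2 and −0.24 without WT replicate 1.

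**Figure D3:**
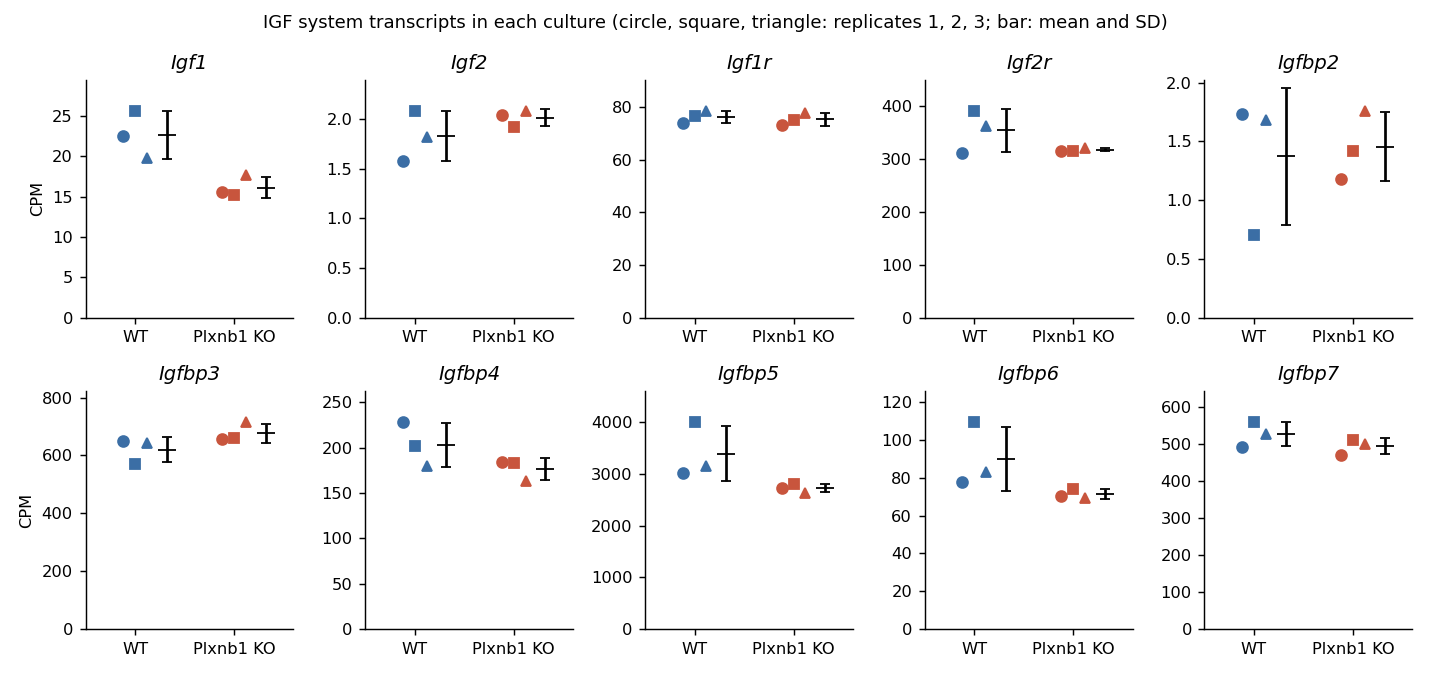
TMM-scaled CPM (linear axes from 0) of the 10 genes in each culture, with WT in blue and Plxnb1-/- in red, replicates 1, 2, and 3 as circles, squares, and triangles, and the mean with its SD as a black bar. The genotypes do not overlap for *Igf1*, *Igfbp5*, and *Igfbp6*, which were lower in Plxnb1-/- SCs, and for *Igfbp3*, which was higher. WT replicate 2 is the highest culture for *Igf1*, *Igf2r*, *Igfbp5*, *Igfbp6*, and *Igfbp7*, and by a narrow margin for *Igf2*.

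*Igfbp5*, a binding protein that attaches to extracellular matrix, was the most abundant of the 10 and lies on chromosome 1 (72857932 to 72874884, minus strand) next to *Igfbp2* (72824503 to 72852474, plus strand). It stood at 3024, 4007, and 3155 CPM in the WT cultures, against 2738, 2811, and 2639.6 CPM in the mutant ones. All Plxnb1-/- cultures were below all WT cultures, and WT replicate 2 stood apart from the rest. The log2 fold change was −0.31 (95% interval −0.53 to −0.10), or 19.6% lower, with an adjusted p of 0.285 from edgeR and of 0.0485 from DESeq2. Without WT replicate 2 it was −0.17, under the cutoff on the fold change (adjusted p = 0.302 from edgeR and 0.0311 from DESeq2), and the genotypes still did not overlap. When 1 culture was omitted, DESeq2 called *Igfbp5* in 1 of 6 fits, the one without WT replicate 1, and *Igfbp6* in that fit too.

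*Igfbp6*, on chromosome 15 (102144362 to 102149511), encodes a protein that binds IGF2 in preference to IGF1. It stood at 77.9, 109.6, and 82.9 CPM in the WT cultures, against 70.7, 74.4, and 69.5 CPM in the mutant ones. Here too the genotypes did not overlap, and WT replicate 2 was the highest. This gave a log2 fold change of −0.33 (95% interval −0.58 to −0.08, adjusted p = 0.293 from edgeR and 0.0808 from DESeq2), and it was −0.17 without WT replicate 2. *Igfbp3*, the main carrier of IGFs in blood, on chromosome 11 (7206086 to 7213923), had a value of the opposite sign. It stood at 648, 569, and 642 CPM in the WT cultures, against 656, 658, and 715 CPM in the mutant ones. The nearest cultures of the genotypes were close, and WT replicate 2 was the lowest of all. This gave a value of 0.13 on the log2 scale (95% interval −0.01 to 0.27, adjusted p = 0.398 from edgeR), and it was 0.07 without WT replicate 2.

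*Igfbp4*, the binding protein cleaved by the protease PAPP-A, on chromosome 11 (99041244 to 99054392), stood at 228, 201, and 179.7 CPM in the WT cultures, against 184, 183, and 163 CPM in the mutant ones. WT replicate 3 lay among the Plxnb1-/- cultures. Its value on the log2 scale was −0.20 (95% interval −0.39 to −0.01, adjusted p = 0.351 from edgeR), and it was −0.11 without WT replicate 1. *Igfbp7*, a distant relative that binds IGFs weakly and is found in vessel walls, on chromosome 5 (77349240 to 77408041), stood at 494, 560.1, and 528 CPM in the WT cultures, against 471, 513, and 501 CPM in the mutant ones. The genotypes overlapped, and the log2 fold change was −0.09 (95% interval −0.22 to 0.04, adjusted p = 0.508 from edgeR), and it was −0.042 without WT replicate 2 and −0.06 without Plxnb1-/- replicate 1. Exons of *Polr2b* on the opposite strand share 7.03% of the exon bases of *Igfbp7*. *Igfbp2*, a binding protein of fetal tissues and glia, was low, with between 41 and 122 counts per library. It stood at 1.73, 0.700, and 1.68 CPM in the WT cultures, against 1.18, 1.42, and 1.76 CPM in the mutant ones, and WT replicate 2 was the lowest. Its log2 fold change of 0.07 had a 95% interval from −0.62 to 0.76 (adjusted p = 0.945 from edgeR), and it was −0.23 without WT replicate 2, so no direction could be read.

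**Figure D4:**
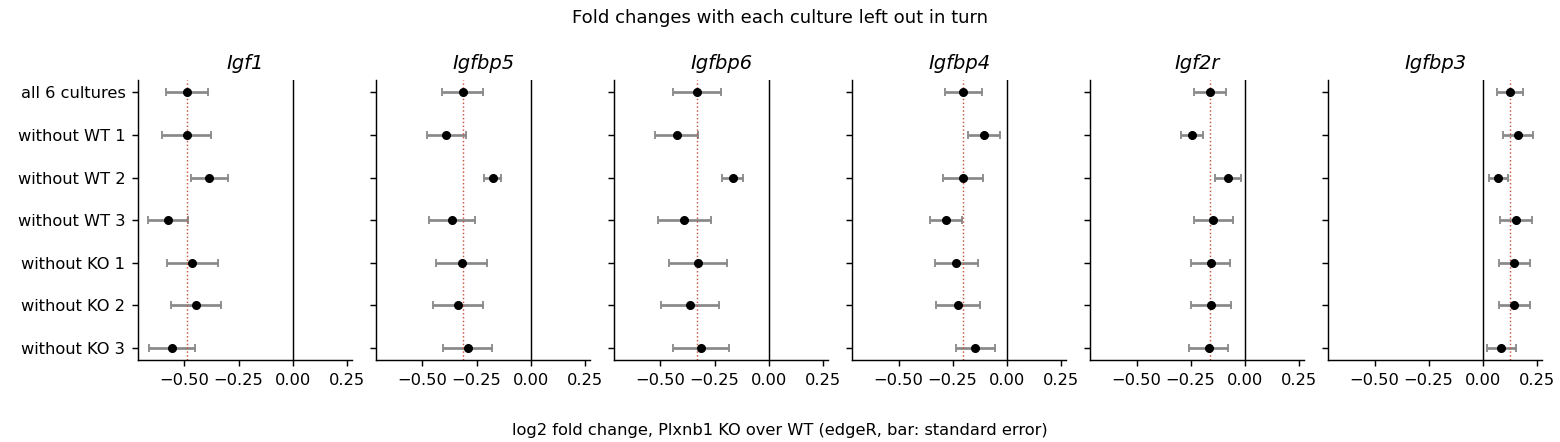
Log2 fold change (Plxnb1-/- over WT, edgeR) of 6 genes with all cultures and in the 6 fits that each omit 1 culture, with standard errors as bars and the value from all cultures as a dotted line. *Igf1* ranges from −0.58 to −0.39, and the values of *Igf1*, *Igfbp5*, *Igfbp6*, *Igf2r*, and *Igfbp3* are nearest to 0 without WT replicate 2.

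Without WT replicate 2, 3 of the 10 genes were lower and 2 were higher without overlap, where 13.6% of all tested genes were lower and 12.2% higher. The added gene was *Igf2*. In that fit 3 of the 10 had an unadjusted p below 0.05, namely *Igf1*, *Igfbp5*, and *Igfbp6*, against 8.99% of all genes.

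Levels of cell type markers also differed in direction between the genotypes. Of 12 fibroblast markers, 11 were lower and 1 was higher in Plxnb1-/- SCs, 5 of them with an unadjusted p below 0.05 and 1, *Col1a1*, called by DESeq2. The higher one was *Lum*, with a log2 fold change of 0.08 (0.0017 to 0.13 in edgeR fits that omit 1 culture). *Dcn*, counted as lower, was at −0.0064 (−0.12 to 0.10 in such fits). It measured 281 ± 43.8 CPM in WT, against 280 ± 7.98 CPM in mutant SCs (SD, n = 3). *Clec3b* and *Ly6c1*, also counted as lower, had only 4 to 6 and 4 to 10 counts per library. The summed level of the 12 ranged from 11423 to 14723 CPM in WT, highest in replicate 2, and from 10394 to 10875 CPM in Plxnb1-/- SCs. The collagen genes *Col1a1*, at 4906 to 7095 CPM, and *Col3a1*, at 4339 to 6130 CPM, made up most of this sum. *Thy1*, the antigen used to remove fibroblasts, stood at 429, 652, and 489.9 CPM in the WT cultures and between 384 and 409.7 CPM in Plxnb1-/- SCs, and *Pdgfra* ranged from 61.3 to 91.05 CPM in WT and from 56.4 to 59.1 CPM in Plxnb1-/- SCs. In edgeR fits that omit 1 culture, the log2 fold change of *Thy1* (−0.39 with all cultures) ranged from −0.51 to −0.19. That of *Pdgfra* (−0.33) ranged from −0.44 to −0.14, and that of *Col1a1* (−0.30) from −0.36 to −0.19. Fibroblasts also make IGF1 and several binding proteins, and the part of these markers in the values of *Igf1*, *Igfbp5*, and *Igfbp6* was not tested.

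All 12 macrophage markers were higher in Plxnb1-/- SCs, 5 with an unadjusted p below 0.05 and 3 (*Cx3cr1*, *C1qb*, and *Lyz2*) called by DESeq2, and they summed to between 131 and 159.6 CPM in WT, against between 171 and 190.3 CPM in mutant SCs. Macrophages are another source of IGF1, and their markers were higher where *Igf1* was lower. *Lyz2* made up most of this sum, at 79.5 to 118 CPM, and *Adgre1* and *Csf1r* reached at most 3.70 and 17.1 CPM. The part of these markers in the value of *Igf1* was not tested. All 12 SC markers were higher, with 8 at an unadjusted p below 0.05 and 0 called by edgeR or DESeq2, and they summed to between 3325 and 3826 CPM in WT, against between 3849 and 4229 CPM in mutant SCs. The 10 mural cell markers, 4 lower and 6 higher, summed to between 1886 and 2511 CPM in WT, against between 1711 and 1835 CPM in mutant SCs, and 1, *Acta2*, was called by DESeq2 as lower. The log2 fold change of *Acta2* was −0.42, and it ranged from −0.52 to −0.26 in edgeR fits that omit 1 culture. For 9 endothelial markers, 7 of them lower, the sums ranged from 82.2 to 107.7 CPM in WT and from 86.3 to 92.2 CPM in Plxnb1-/- SCs, with *Cdh5* the highest at 51.6 to 68.0 CPM and *Pecam1* at 1.08 to 3.72 CPM. Neuron markers (11 of 12 higher), satellite glia markers (5 of 5) and perineurial markers (2 of 4 tested, with *Itgb4* called by DESeq2) were also counted. An unadjusted p below 0.05 in edgeR was reached by 0 neuron, 3 satellite glia, and 1 perineurial markers, each of them higher. It was also reached by 3 mural cell markers, all lower, and by 1 endothelial marker. The latter was *Tek*, which was higher (log2 fold change 0.59), at 29 to 78 counts per library. *Fabp7* is in both the SC and the satellite glia list. Neuron markers summed to between 159.9 and 173 CPM in WT and between 174 and 204 CPM in mutant SCs, satellite glia markers to between 769 and 890.2 and between 914 and 942, and perineurial markers to between 244 and 262 and between 271 and 289. *Tubb3*, at 127 to 153 CPM, made up most of the neuron sum, and *Kcnj10*, at 639 to 798 CPM, most of the satellite glia sum. The perineurial marker *Lypd2* was at 0 in every library.

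The proteins that set how much ligand is free were followed as a list of 11 genes, of which 9 were tested, 4 of them lower and 5 higher in mutant SCs (median 0.05). By edgeR 0 were called, 3 had an unadjusted p below 0.05, all lower, and DESeq2 called 1. This was *Pappa*, which encodes PAPP-A, the protease that cleaves IGFBP4 and IGFBP5. It stood at 81.8, 89.7, and 89.7 CPM in the WT cultures, against 77.8, 66.5, and 58.2 CPM in the mutant ones, without overlap. Its log2 fold change was −0.37 (adjusted p = 0.273 from edgeR and 0.0190 from DESeq2), and DESeq2 called it in 2 of the 6 fits that omit 1 culture, those without WT replicate 1 or Plxnb1-/- replicate 1. *Stc2*, an inhibitor of PAPP-A, had the largest negative value of the list, −0.66 (adjusted p = 0.291 from edgeR and 0.0531 from DESeq2), at 5.45 ± 1.81 CPM in WT, against 3.44 ± 0.353 CPM in mutant SCs (SD, n = 3). Without WT replicate 2 it was −0.36, close to the −0.34 of *Pappa* in that fit. The related protease *Pappa2* had the largest positive value of those with a mean of at least 1 CPM, 0.20 (adjusted p = 0.614 from edgeR), and it was 0.04 without WT replicate 1 and 0.31 without WT replicate 3.

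A list of 11 other genes named for IGF held 6 tested genes, 5 higher and 1 lower (median 0.12), of which 0 were called by edgeR, 0 by DESeq2, and 0 had an unadjusted p below 0.05. The gene of the mRNA-binding protein *Igf2bp2*, whose log2 fold change took either sign as cultures were omitted, measured 25.9 ± 2.00 CPM in WT, against 26.0 ± 3.02 CPM in mutant SCs (SD, n = 3). *Airn*, the noncoding RNA that silences *Igf2r* on the paternal allele, measured 3.16 ± 0.983 and 2.75 ± 0.391 CPM. The log2 fold change of *Airn* was −0.20, and it was 0.07 without WT replicate 2, −0.37 without WT replicate 1, and −0.09 without Plxnb1-/- replicate 3.

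Between the receptor and PI3K, 25 genes of the insulin receptor family and its adaptors were listed and 21 tested, with 12 lower and 9 higher (median −0.012). By edgeR 0 were called, 2 had an unadjusted p below 0.05, both lower, and DESeq2 called 1. This was *Enpp1*, an ectoenzyme known to hinder insulin receptor signaling, at 192.6, 227, and 180.3 CPM in the WT and 153, 171.5, and 141 CPM in the mutant cultures (log2 fold change −0.37, adjusted p = 0.273 from edgeR and 0.0159 from DESeq2), and DESeq2 called it in 3 of the 6 fits that omit 1 culture, not in those without WT replicate 2, Plxnb1-/- replicate 1, or Plxnb1-/- replicate 3. The second was *Grb10*, an adaptor that dampens IGF1 receptor signaling, at −0.22 (adjusted p = 0.284 from edgeR and 0.0843 from DESeq2), and it was −0.14 without WT replicate 2. *Insr*, the insulin receptor, measured 61.6 ± 0.865 CPM in WT, against 65.6 ± 2.81 CPM in mutant SCs, and the adaptors *Irs1* and *Irs2* had log2 fold changes of 0.10 and 0.09 (adjusted p = 0.430 and 0.423 from edgeR). *Insr* had a log2 fold change of 0.09, which was 0.06 without Plxnb1-/- replicate 3, and *Irs1* was at 0.06 without WT replicate 2.

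All 34 genes of the PI3K, Akt, and mTOR list were tested, with 16 lower and 18 higher (median 0.0093). By edgeR 0 were called, 9 had an unadjusted p below 0.05, 5 higher and 4 lower, and DESeq2 called 1. This was *Deptor*, an inhibitor of mTOR, which stood at 12.6, 11.1, and 12.1 CPM in the WT cultures, against 16.5, 16.1, and 22.0 CPM in the mutant ones. All Plxnb1-/- cultures were above all WT cultures. The log2 fold change was 0.61 (adjusted p = 0.235 from edgeR and 2.92e-04 from DESeq2), and it ranged from 0.46 to 0.69 when 1 culture was omitted, with DESeq2 calling it in 6 of 6 such fits. The largest negative value was that of *Eif4ebp1*, a repressor of translation that mTOR switches off, at −0.25 (adjusted p = 0.273 from edgeR and 0.0499 from DESeq2), just under the cutoff on the fold change.

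Of 22 FOXO target genes, which are turned on when Akt signaling is low, 21 were tested, with 8 lower and 13 higher (median 0.03). By edgeR and by DESeq2 0 were called, and 4 had an unadjusted p below 0.05 in edgeR, 2 higher and 2 lower. The largest positive value of those with a mean of at least 1 CPM was that of *Pdk4*, 0.25 (adjusted p = 0.512 from edgeR, 0.16 without Plxnb1-/- replicate 3), and the largest negative one that of *Gadd45a*, −0.26 (adjusted p = 0.348 from edgeR, −0.17 without WT replicate 2). All 15 genes for partners of the binding proteins at the cell surface and in the matrix were tested, with 12 lower and 3 higher (median −0.09), 0 called by edgeR, 6 at an unadjusted p below 0.05, 5 of them lower, and 2 called by DESeq2. The latter were the integrin subunit *Itga5* (−0.42, adjusted p = 0.273 from edgeR and 0.0225 from DESeq2) and its ligand fibronectin, *Fn1* (−0.31, adjusted p = 0.284 from edgeR and 0.0452 from DESeq2). *Fn1* stood at 7442, 9692, and 7998 CPM in the WT cultures and between 6482 and 7199 CPM in Plxnb1-/- SCs. *Itga5* stood at 591.5, 802.5, and 643 CPM in the WT cultures, against 551.5, 537, and 430.5 CPM in the mutant ones. The largest positive value was that of *Ptprz1*, a receptor phosphatase, 0.31 (adjusted p = 0.400 from edgeR), and it was 0.13 without Plxnb1-/- replicate 3. WT replicate 2, where the summed fibroblast markers were highest, was the highest culture for *Fn1* and *Itga5*. The part of those markers in these values was not tested. Without WT replicate 2 the log2 fold change of *Fn1* was −0.18 (adjusted p = 0.341 from edgeR and 0.0943 from DESeq2), under the cutoff on the fold change, and that of *Itga5* was −0.28 (adjusted p = 0.454 from edgeR and 0.592 from DESeq2). In the 6 fits that omit 1 culture, DESeq2 called *Fn1* in 1, the one without WT replicate 1, and *Itga5* in 2, those without WT replicate 1 or Plxnb1-/- replicate 1.

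**Figure D5:**
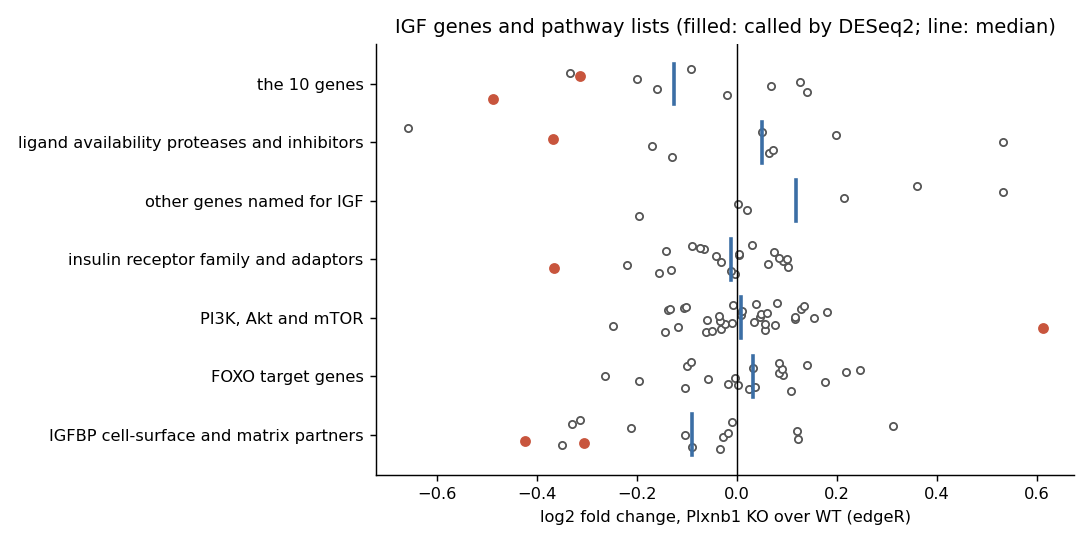
Log2 fold change (Plxnb1-/- over WT, edgeR) of every tested gene of the 10 and of each pathway list, filled where DESeq2 called the gene, with the median of each list as a blue line. Medians lie between −0.13 and 0.12, and the called genes outside the 10 are *Pappa*, *Enpp1*, *Deptor*, *Itga5*, and *Fn1*.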

How the data were processed

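Per the labels and the study's methods, the authors trimmed reads with Trim Galore 0.6.5, aligned them to mm10 with Bowtie2 2.4.1 (which does not split reads across introns, so reads over exon junctions can be lost), removed duplicates with SAMtools 1.10, and counted reads on exons with FeatureCounts. The deposited counts are not normalized and were used as they stand. The deposited FPKM values divide by the span of the gene, introns included, in 99.5% of genes with enough counts, and by the exon length in at most 8.6%, so levels between genes were computed here from counts and the merged exons of GENCODE M21 (GRCm38), a release older than that of the authors. FPKM served only in an alternative.

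The test, edgeR 4.0.16 in R 4.3.3 (TMM, quasi-likelihood, a term for genotype alone), covered genes that reached 2 counts in 5 or more of the 6 libraries. Intervals of 95% use its standard errors. DESeq2 1.42.0 and limma 3.58.1 were alternatives, as were other scalings and filters, a term for the replicate number, and each library left out. The scripts were tested on simulated counts. The genes named are the 10, *Plxnb1*, defining markers, and, of each pathway list, the genes called by edgeR or DESeq2 and otherwise those with the largest rise and fall at 1 CPM or more. *Gm49394*, *Polr2b*, *Igf2bp2*, *Insr*, *Irs1*, *Irs2*, *Grb10*, *Cx3cr1*, *C1qb*, *Lyz2*, *Cdh5*, *Col1a1*, *Acta2*, and *Itgb4* were named after their values had been seen. The same holds for *Col3a1*, *Dcn*, *Lum*, *Clec3b*, *Ly6c1*, *Tek*, *Tubb3*, *Kcnj10*, and *Fabp7*. The 10 genes and the lists were chosen with earlier results of these data known.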

Additional observations from a re-analysis of the deposited data

How the results depend on the processing

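Of the 10 genes, edgeR called 0 in the reported fit and with any 1 culture left out. DESeq2 called 2, DESeq2 without its filters 1, edgeR without the filter on low counts 1, and DESeq2 with 1 culture left out between 0 and 3, with 3 in the fit without WT replicate 1, where DESeq2 called 4.17% of all tested genes (1.99% as lower), against 0.225% to 1.24% in the other 5 such fits. Over all tested genes, edgeR called 8, against 335 with DESeq2, 282 with DESeq2 without its filters, 296 without the filter on low counts, 5 with at least 1 CPM in 3 libraries, 3 with limma on log2(FPKM + 0.1) and 3 on log2(FPKM + 1), and between 4 and 25 with 1 culture left out, 25 without WT replicate 2. The cause of these differences was not tested. With a replicate block 5 genes and 0 of the 10 were called. The numbers share no stated origin, and the deviations of same-numbered cultures correlated at −0.022, 0.008, and 0.065, so they were not read as pairs.

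In the lists for ligand availability, the insulin receptor family, and PI3K, Akt, and mTOR, 1 gene each was called by DESeq2, by DESeq2 without its filters, and by edgeR without the filter, and in the list of binding protein partners 2, 1, and 1. The median of the ligand availability list was −0.040 with at least 1 CPM in 3 libraries and −0.056 to 0.098 with 1 culture left out. That of the insulin receptor list was 0.0016 and 0.0012 with limma on FPKM plus 0.1 and plus 1 and −0.027 to 0.013 with 1 culture left out, and that of the partners was −0.016 with limma on FPKM plus 1. *Igf1r* ranged from −0.043 to 0.0027 in edgeR with 1 culture left out and was 0.00017 in DESeq2 without WT replicate 3. *Igfbp2* ranged from −0.23 to 0.26 in edgeR, was −0.09 in edgeR and −0.086 in DESeq2 without Plxnb1-/- replicate 3, and was −0.24 in DESeq2 without WT replicate 2. The other 8 genes of the 10 kept their direction in every alternative run. On log2(FPKM + 1), where its values are low, *Igf1* differed by −0.09. Counts of *Igf2* and *Igfbp2* were low, at 41 to 160 per library. For *Igfbp2*, WT replicate 2 (41 counts) also stood apart from WT replicates 1 and 3 (111 and 119 counts).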
